A study of Mus musculus with 8 samples.

Results

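Erythro-myeloid progenitors (EMP) were examined in cells of the aorta-gonad-mesonephros (AGM) region of mouse embryos, the site where hematopoietic stem cells first form. They were taken as the cells that the authors' deposited annotation names EMP, and they made up 747 of 15168 cells. CITE-seq, which reads RNA and antibody-derived tags (ADT) of the same single cell, had been run on CD31+ cells sorted at E10.5. The 5 wildtype (WT) libraries came from the C57BL/6 strain. The 3 Mff_Cre libraries came from Meis1-flox/VE-Cre embryos, in which the floxed exon 8 of Meis1 is cut out by Cre, expressed from the promoter of the endothelial gene Cdh5 (VE-cadherin). Each library was made from a pool of 2 to 5 embryos, so 1 library was 1 replicate. Since the labels give no Cre to the WT embryos, the effects of the Cre and of the deletion cannot be told apart. The paper's name for the Cre line gives a mixed strain background. Strain may therefore differ between the genotypes, and its effect cannot be told apart from these either. EMP cells were compared with the cells annotated as EHT (endothelial-to-hematopoietic transition, 488 cells), Myeloid (2397 cells), Megakaryocytes (359 cells) and with the pooled endothelial clusters (EC, 11177 cells).

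EMPs are the second wave of blood formation in the mouse embryo. They arise from hemogenic endothelium of the yolk sac, enter the circulation and colonise the fetal liver, where they give rise to erythrocytes, megakaryocytes, macrophages, granulocytes and mast cells, and they are known for making little or no lymphoid progeny. They are usually recognised by the receptor Kit (CD117) together with the integrin CD41 and the Fc receptors CD16/32, and the transcription factors Runx1 and Myb are needed for their formation or function. The CD31 sort decides which of them could be counted here.

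The libraries held 20484881 to 79429129 unique molecular identifiers (UMIs), each UMI being 1 RNA molecule read once. EMP cells had a median of 47527 to 53132 UMIs in WT 1 to WT 4, against 21434 in WT 5 and 14516 to 20501 in the 3 Mff_Cre libraries, so depth moved with genotype except in WT 5, and the number of genes called by genotype, the gene lists and the genes described most closely are therefore also given with WT 5 as the only WT library. In that fit the WT arm is 1 library, so its spread comes from the Mff_Cre libraries alone and WT 5 is assumed to vary like them. No tag counts were used from WT 4, and CD44 tags were counted only in WT 5 and the Mff_Cre libraries. Of the cell barcodes, 33 occurred in more than 1 library, 3 of them in EMP cells, and a doublet caller marked 9 EMP cells. Levels are given as CPM, the UMIs of a gene over the summed cells of a library, scaled to a common library total. Where values of single libraries follow each other, they stand in the order WT 1 to 5, then Mff_Cre 1 to 3.

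EMP cells were 3.84%, 5.19%, 5.84%, 3.96% and 5.25% of the cells in WT 1 to WT 5, and 4.48%, 6.00% and 5.34% in Mff_Cre 1 to 3. The exact (Clopper-Pearson) 95% intervals, which cover counting error only, ran from 2.93% to 4.92% for the smallest share and from 5.09% to 7.01% for the largest. The genotypes overlapped, with 4.82% ± 0.873 (SD, n = 5) in WT and 5.27% ± 0.760 (n = 3) in Mff_Cre (exact permutation test, two-sided, p = 0.411, smallest possible 0.0179). There were 1.27 ± 0.363 EMP cells per EHT cell in WT and 2.35 ± 0.815 in Mff_Cre, a difference that did not pass 0.05 (exact permutation p = 0.0536).

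The 3 markers given for EMP cells were all present. Runx1, the transcription factor required for the emergence of blood from endothelium, measured 160.5, 159.6, 176, 178 and 165 CPM in the WT libraries, and the Mff_Cre libraries had 184, 189 and 207 CPM, a narrow range. Kit, the receptor for stem cell factor, measured 84.2, 71.1, 94.4, 83.7 and 79.3 CPM in WT, with 59.4, 48.8 and 78.0 CPM in Mff_Cre. Myb, a transcription factor of proliferating progenitors, measured 198, 224, 163, 168 and 181 CPM in WT, with 173, 137 and 147 CPM in Mff_Cre. Since the clusters were drawn from RNA, levels of RNA against other clusters are a description with no test. Over the 8 libraries Runx1 averaged 177 ± 15.97 CPM in EMP, 195 in EHT, 128 in Myeloid and 1.09 in EC. Kit averaged 74.9 ± 14.7 CPM in EMP, below the 162 of EHT and above the 14.7 of Myeloid cells. Myb averaged 174 ± 27.7 CPM in EMP, 148 in EHT, 29.8 in Myeloid and 8.92 in Megakaryocytes, and EMP ranked first of the 10 annotated clusters for Myb and second for Runx1 and Kit.

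After each cell was thinned to 5000 UMIs, Runx1 was seen in 53.7% of EMP cells, Kit in 27.7% and Myb in 52.3%, against 0.641%, 12.1% and 0.249% of EC. Cdh5 (VE-cadherin), which defines endothelium, was seen in 3.64% of EMP cells and in 81.7% of EC at the same depth. No EMP cell was too shallow for this thinning.

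Of the lists that mark single blood lineages, the granule list had the highest sum in EMP cells. These genes encode proteases and other cargo of the granules that neutrophil and monocyte precursors build. The list of 14 summed to 2606 CPM in EMP, 385 in EHT, 1555 in Myeloid, 479 in Megakaryocytes and 18.4 in EC. Of them 5 were at least 2-fold higher in EMP than in EHT in every library and 0 were lower, where 1.21% of the 5887 genes compared were higher and 3.31% lower. Against Myeloid cells 1 of 14 was higher in every library and 0 lower, against 1.07% and 3.95% of 5699 genes. Since the clusters were drawn from these genes too, nothing is read from these shares.

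Mpo (myeloperoxidase) had 753, 692, 607, 624 and 479 CPM in EMP of WT embryos, while 901, 856 and 742 CPM were read in Mff_Cre. Its mean of 707 ± 137 CPM compared with 62.3 in EHT and 264 in Myeloid, the first place among the 10 clusters. Prtn3 (proteinase 3) averaged 933 ± 228 CPM against 140 in EHT and 703 in Myeloid. Srgn, the proteoglycan on which granule proteins are packed, averaged 609 CPM against 172 in EHT and 222 in Myeloid. Ms4a3, a membrane protein of granulocyte-monocyte progenitors, averaged 82.0 CPM against 6.91 and 22.0. Genes of late granulocytes varied far more between libraries: S100a8, a calcium-binding protein of mature neutrophils, ran from 0 CPM in WT 3 to 581 CPM in Mff_Cre 1, and Ltf (lactoferrin) had no UMI in EMP cells.

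Promoters of 3 granule genes and of the mast cell protease Cpa3 are shown because these genes carry the granule and mast cell description above and in what follows (they were chosen after their values were seen), and all 4 matched the RefSeq table of the GRCm38.p6 build. Each runs 5′ to 3′ on the gene's strand from 250 bases before the start to 50 after it. Capitals mark matches on either strand to 4 short motifs, AGATAA (bound by GATA factors), TGTGGT (RUNX), GAGGAA (PU.1) and TTGCNNAA (C/EBP). Matches that touch run together, as at the end of the Ms4a3 window.
Mpo, chr11:87793534-87793833, plus strand: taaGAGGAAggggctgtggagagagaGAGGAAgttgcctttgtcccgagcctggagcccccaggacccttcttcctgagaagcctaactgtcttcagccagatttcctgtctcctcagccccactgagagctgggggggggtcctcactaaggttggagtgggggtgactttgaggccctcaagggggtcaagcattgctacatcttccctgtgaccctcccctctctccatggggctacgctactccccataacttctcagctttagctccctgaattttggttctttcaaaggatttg
Prtn3, chr10:79879417-79879716, plus strand: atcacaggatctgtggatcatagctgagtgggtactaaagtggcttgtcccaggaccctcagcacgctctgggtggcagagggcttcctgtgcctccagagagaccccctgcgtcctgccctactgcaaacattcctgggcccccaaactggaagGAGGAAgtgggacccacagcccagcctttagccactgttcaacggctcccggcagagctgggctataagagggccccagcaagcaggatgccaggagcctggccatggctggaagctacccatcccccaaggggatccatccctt
Ms4a3, chr19:11640802-11641101, minus strand: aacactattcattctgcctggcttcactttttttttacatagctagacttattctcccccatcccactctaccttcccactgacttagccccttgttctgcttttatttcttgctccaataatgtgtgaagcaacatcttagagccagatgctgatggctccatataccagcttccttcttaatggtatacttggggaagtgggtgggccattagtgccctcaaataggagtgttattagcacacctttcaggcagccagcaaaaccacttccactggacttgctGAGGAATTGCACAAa
Cpa3, chr3:20242132-20242431, minus strand: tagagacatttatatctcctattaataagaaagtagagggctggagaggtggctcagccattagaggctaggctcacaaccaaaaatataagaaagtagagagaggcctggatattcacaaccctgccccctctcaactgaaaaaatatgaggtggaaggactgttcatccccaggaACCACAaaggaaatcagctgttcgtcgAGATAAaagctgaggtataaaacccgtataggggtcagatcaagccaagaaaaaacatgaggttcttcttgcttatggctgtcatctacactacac
The Mpo window held 2 matches to the PU.1 motif and the Prtn3 window 1. The Ms4a3 window held 1 match to the PU.1 motif and 1 to the C/EBP motif. The Cpa3 window held none of these but 1 match each to the GATA and RUNX motifs. Over all 32851 RefSeq promoters of this length, 11.2% held the GATA motif, 16.8% the RUNX motif, 28.3% the PU.1 motif and 10.8% the C/EBP motif. A match is a description of the letters and not evidence of binding.

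Of the mast cell and basophil genes, Cpa3 and Hdc had higher means in EMP than in the 4 other cell types. The list of 9 summed to 212 CPM in EMP, 36.9 in EHT, 14.4 in Myeloid and 0.400 in Megakaryocytes, and nearly all of the EMP sum came from Cpa3 and Hdc. Cpa3 (mast cell carboxypeptidase) had 57.5, 47.1, 139, 82.0 and 54.5 CPM in WT, with 282, 233 and 202 CPM in Mff_Cre. In EHT it averaged 35.1 CPM, lower than in EMP in 7 of 8 libraries, and 1 EHT library reached 234 CPM. Hdc, the enzyme that makes histamine, averaged 69.4 ± 31.0 CPM, against 1.60 in EHT and 6.66 in Myeloid. Ms4a2, a subunit of the high-affinity IgE receptor, reached only 4.18 CPM. Mcpt8, Prss34, Tpsb2 and Mcpt4, proteases of mature basophils and mast cells, had no UMI in EMP cells.

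Genes of the other lineages that EMPs can feed had sums below that of the granule list. Most of the granule sum came from Prtn3, Mpo and Srgn, so these sums do not rank the lineages. The 15 erythroid genes summed to 744 ± 674 CPM in EMP, 254 in EHT, 462 in Myeloid and 13092 in Megakaryocytes. The 14 megakaryocyte genes summed to 252 CPM in EMP, 202 in EHT and 25985 in Megakaryocytes, with 13 of the 14 lower in EMP than in Megakaryocytes in every library (all genes compared: 6.78% lower and 2.59% higher). Macrophage genes summed to 61.3 CPM in EMP and 3137 in Myeloid, and 13 of 14 were lower than in Myeloid cells in every library (all genes compared: 3.95% lower). Lymphoid genes were at 5.16 CPM in sum, with Ly6d, Cd3e and Dntt at 0. The 16 endothelial genes summed to 321 CPM against 1571 in EHT and 6042 in EC, and all 16 were lower than in EC in every library (12.5% of 6250 genes lower, 5.52% higher).

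**Figure D1:**
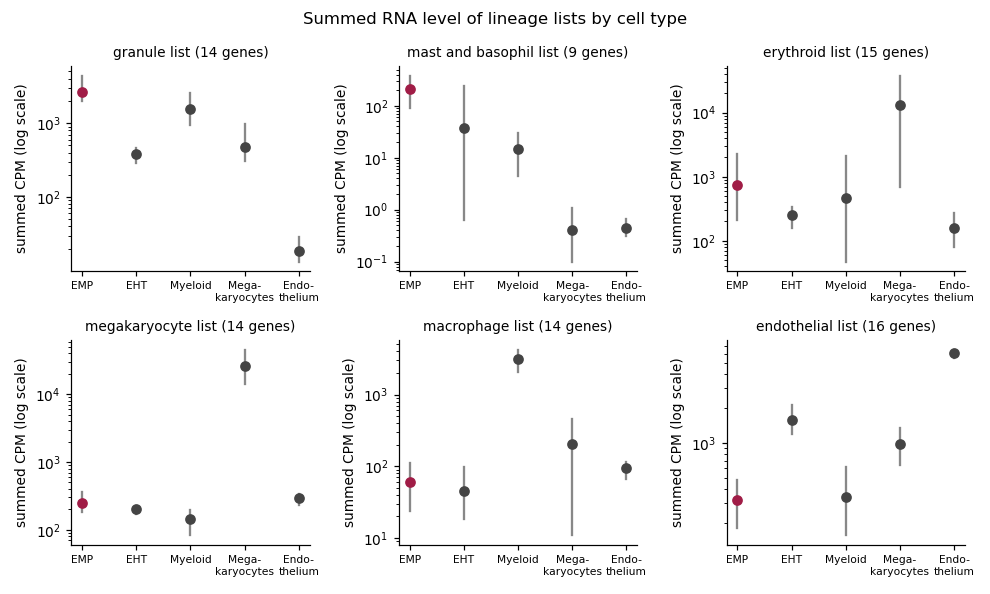
Summed level of 6 gene lists in EMP, EHT, Myeloid, Megakaryocytes and endothelial cells, in CPM on a log axis; each point is the mean over libraries and each line runs from the lowest to the highest library. The granule list was highest in EMP (mean 2606 CPM), as was the mast and basophil list (212 CPM), while the macrophage list peaked in Myeloid cells (3137 CPM) and the endothelial list in endothelium (6042 CPM).

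Among transcription factors, EMP cells carried factors of several lineages side by side. Gata2, a factor of progenitors and mast cells, averaged 99.2 CPM against 50.2 in EHT and 7.92 in Myeloid, the highest of the 10 clusters. Gata1, the factor of erythroid and megakaryocyte fate, averaged 54.8 ± 20.04 CPM against 2.87 in EHT and 3.15 in Myeloid, below the 167 of Megakaryocytes. Klf1, which drives erythroid genes, averaged 32.3 CPM and was again highest in EMP. Its level was lowest in WT 3 at 1.94 CPM and between 19.8 and 49.2 CPM in the other 7 libraries. Cebpa, a factor of granulocytes and monocytes, averaged 21.6 CPM against 2.41 in EHT and 11.1 in Myeloid. Spi1 (PU.1) averaged 201 CPM, 222 in EHT and 371 in Myeloid, and Irf8, a monocyte factor, averaged 26.7 CPM against 194 in Myeloid.

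A second set of factors separated EMP from EHT in the other direction. Hlf, a factor of hematopoietic stem cells, averaged 0.791 CPM in EMP and 84.3 in EHT, lower in EMP in 8 of 8 libraries. The stem cell factor Mecom averaged 0.896 against 65.3 CPM, Hoxa9 2.80 against 108 CPM, Mycn 8.59 against 153 CPM and Gfi1 2.06 against 43.1 CPM. Hmga2, an architectural chromatin protein of fetal cells, averaged 197 CPM in EMP and 762 in EHT. Of the 24 factors, 2 were at least 2-fold higher and 5 lower in EMP than in EHT in every library, against 1.21% and 3.31% of all genes compared.

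Receptors gave values on both sides of EHT. Csf2rb, the shared chain of the receptors for several myeloid cytokines, averaged 51.3 CPM against 6.52 in EHT and 35.8 in Myeloid. Fcgr3 (CD16) averaged 121 CPM against 25.7 in EHT and 174 in Myeloid, and Fcgr2b (CD32) 9.67 against 0.060 and 4.86 CPM. Cd34, a sialomucin of progenitors and endothelium, was lower at 158 CPM against 430 in EHT. Csf1r, the macrophage receptor, averaged 9.69 CPM against 173 in Myeloid. Epor, the receptor for erythropoietin, averaged 10.1 CPM. Flt3 and Il7r, receptors of lymphoid-primed cells, averaged 1.82 and 2.58 CPM.

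Genes higher in EMP than in EHT, Myeloid, Megakaryocytes and EC alike were few. A gene was counted when its mean in EMP was at least 20 CPM and log2(CPM + 5) was at least 1 higher than in each of the 4 others in every library, and 5 of 5134 genes (0.0974%) met this. Perp, a membrane protein of cell junctions, averaged 99.6 ± 12.7 CPM in EMP against 10.9 in EHT and 10.3 in Myeloid, and lay between 79.7 and 119 CPM in the 8 libraries. Ptprcap, which binds CD45, averaged 145 ± 26.4 CPM against 31.3 and 24.1. Nkg7, a protein of cytotoxic granules, averaged 29.4 ± 9.89 CPM against 2.40 and 3.11. Cmtm7, a membrane protein of the chemokine-like factor family, averaged 562 ± 135 CPM against 196 and 239. Hdc was the fifth.

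EMP cells differed from one another in how much of each programme they carried. Thinned to 5000 UMIs, 92.7% of EMP cells had a UMI of a granule gene (99.0% without thinning), against 8.80% of EC, and 36.8% had one of a mast and basophil gene (60.6% without thinning), against 0.240% of EC. Shares for the erythroid list (64.4%) and the megakaryocyte list (65.8%) have to be read against 44.1% and 65.8% of EC. The macrophage list at 17.0% was below the 29.4% of EC, so this share does not set EMP cells above EC. With 4 defining genes of each list, a choice made after the values were seen, granule UMIs were found in 79.6% of EMP cells, erythroid in 13.8% and megakaryocyte in 15.7%, against 2.12%, 0.580% and 4.87% of EC. With the whole lists, granule and erythroid UMIs met in 57.4% of EMP cells, against 59.8% for the product of the separate shares, and granule and megakaryocyte UMIs in 60.8%, against a product of 61.0%. With the 4 defining genes 7.37% of EMP cells had both granule and erythroid UMIs, where the product was 10.9%, and the share was below the product in 7 of 8 libraries. Granule and megakaryocyte UMIs met in 9.53% of cells, against a product of 12.4%, below in 8 of 8. Granule and mast and basophil UMIs met in 32.4%, against a product of 29.1%, below in 2 of 8.

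EMP cells with more granule RNA had less erythroid RNA. Within a library the Spearman correlation of the 2 sums across EMP cells had a median of -0.67 over the 8 libraries (range -0.81 to -0.56). It was 0.79 for granule with leukocyte genes, 0.36 for granule with mast and basophil genes, and 0.37 for erythroid with megakaryocyte genes. Nucleolar genes, which serve ribosome production, went against leukocyte genes at -0.63. The sums of a cell share its UMI total, so these are descriptions with no p.

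**Figure D2:**
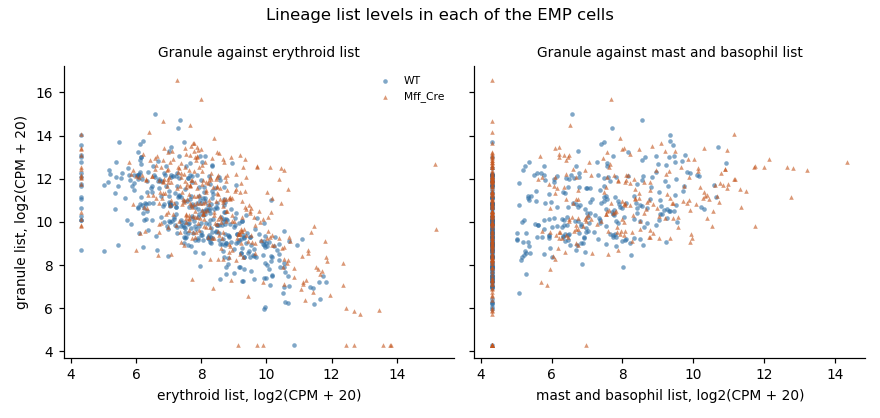
Each EMP cell by its summed granule genes against its summed erythroid genes and against its summed mast and basophil genes, both axes as log2(CPM + 20). Cells high on the erythroid axis lie low on the granule axis (median Spearman correlation within a library -0.67), while granule and mast and basophil sums lean the same way (median 0.36).

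Antibody tags took no part in the clustering, so they could be tested. For 6 surface proteins the mean tag count per EMP cell was set against that of another cell type of the same library, as log2 of the ratio, with exact sign flips over 7 libraries (6 for Megakaryocytes, 4 for CD44) and Benjamini-Hochberg adjustment over the 24 pairs. Of the 24, 17 passed 0.05. All 7-library pairs that passed with every library on one side had an adjusted p of 0.0288 by exact sign flips (smallest unadjusted 0.0156), and the 6-library pairs that passed had 0.0441.

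EMP cells lay between EHT and Myeloid cells in surface CD117. The mean CD117 count in EMP was 146, 104, 63.9 and 32.3 in WT 1, 2, 3 and 5 and 28.5, 19.0 and 4.40 in Mff_Cre 1 to 3, so that libraries differed far more than cell types did. In EHT cells of the same libraries it was 184, 165, 103, 62.5, 41.7, 29.0 and 10.1, above EMP in every library. The log2 ratio of EMP to EHT was -0.71 ± 0.28 (SD), and to Myeloid 0.80 ± 0.39, higher in 7 of 7. Kit RNA had the same order.

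CD41, the integrin subunit of platelets and early progenitors, was higher in EMP than in EHT by 0.64 ± 0.55 (7 of 7) and than in Myeloid by 0.93 ± 0.37 (7 of 7), both on the log2 scale. It was far below Megakaryocytes, at -3.58 ± 0.16 (0 of 6 higher). CD43, a sialophorin that appears as cells leave the endothelium, was higher than in EHT by 0.60 ± 0.63 in 6 of 7 libraries (adjusted p = 0.0441, exact sign flips), than in Myeloid by 0.81 ± 0.18 and than in EC by 4.97 ± 1.01. A median of 99.0% of EMP cells lay above the 95th percentile of EC of their library for CD43, 89.8% for CD41 and 63.1% for CD117.

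CD45, the pan-leukocyte phosphatase, set EMP between EHT and Myeloid cells. Its log2 ratio was 1.42 ± 0.86 to EHT (7 of 7 higher) and -2.10 ± 0.87 to Myeloid (0 of 7), and a median of 21.8% of EMP cells were above the 95th percentile of EC. The ratio to Megakaryocytes, 0.43, did not pass (adjusted p = 0.307, exact sign flips). CD27, a receptor of the TNF receptor family, was lower in EMP than in EHT (-1.05 ± 0.51), Myeloid (-0.59) and Megakaryocytes (-1.52), and its ratio to EC of -0.12 did not pass (adjusted p = 0.672, exact sign flips). CD44, the hyaluronan receptor, could not reach 0.05 with 4 libraries (smallest exact p 0.125), and its ratio was 5.03 to EC, 0.25 to EHT and -0.87 to Myeloid.

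EMP cells had more RNA per cell than EHT and EC of the same library. With tag counts taken per 10000 RNA UMIs none of the 24 pairs passed 0.05, the lowest adjusted p being 0.0536 (exact sign flips). Sign flips over 7 libraries cannot go below an unadjusted 0.0156, so the adjusted p depends on how many pairs come near that floor. A miss here does not show that a difference is gone. Ratios stayed at 4.15 for CD43 against EC and -4.09 for CD41 against Megakaryocytes. Ratios to EHT were then -1.27 for CD117, 0.083 for CD41, 0.22 for CD43 and 1.01 for CD45, so the CD41 and CD43 differences from EHT shrank to near 0. Leaving out 1 library gave either 0 or 17 passing pairs, with a smallest exact p of 0.0312 for 6 libraries. The 17 were kept only without WT 3, which was not in the Megakaryocyte ratios, so those ratios lost no library.

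**Figure D3:**
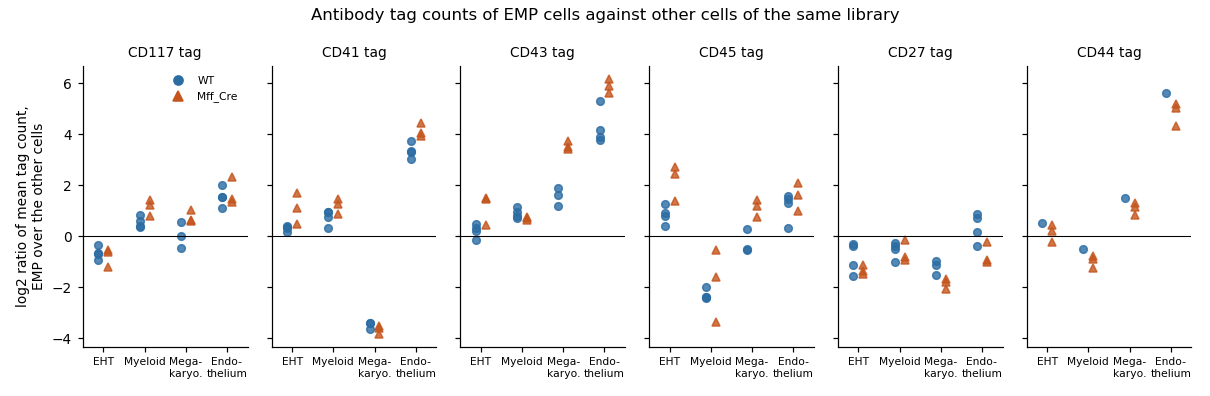
Log2 ratio of the mean tag count per cell in EMP to that in EHT, Myeloid, Megakaryocytes and endothelium for 6 surface proteins; each symbol is 1 library (circles WT, triangles Mff_Cre) and 0 means equal counts. CD117 lies below 0 against EHT in 7 of 7 libraries, CD41 lies near -3.58 against Megakaryocytes, and CD45 lies above 0 against EHT and below 0 against Myeloid cells in 7 of 7.

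Surface protein and RNA were then compared from cell to cell. Within EMP cells of a library, the Spearman correlation of a tag with its own transcript had a median of 0.17 for CD117 and Kit (range 0.04 to 0.60 over 7 libraries), 0.35 for CD41 and Itga2b, 0.24 for CD43 and Spn, 0.37 for CD45 and Ptprc, and -0.04 for CD27. CD44 and Cd44, with tags in 4 libraries, had a median of 0.43 (range 0.26 to 0.51). These values rest on sparse counts and carry no p.

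Tags were then used to ask how EMP cells differ among themselves. In each of 7 libraries the EMP cells were parted at the median of the centred log ratio of 1 tag, the RNA of the cells above it (tag-high) and below it (tag-low) was summed, and edgeR compared the 2 sums with the library as a block (adjusted p under 0.1, Benjamini-Hochberg over all genes tested). Median UMIs of tag-high and tag-low cells differed little in most libraries, but in Mff_Cre 2 they were 15850 in CD117-high and 12680 in CD117-low cells. The centred log ratio is taken over 5 tags, so the 3 splits are not independent of one another.

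EMP cells with more surface CD117 had less granule RNA. Of 8388 genes, 254 (3.03%) were higher and 410 (4.89%) lower in CD117-high cells, and of the granule list 0 were higher and 10 of the 10 tested were lower, with a median log2 change of -2.52 where the median of all genes was -0.00154. Mpo averaged 521 CPM in CD117-high and 923 CPM in CD117-low cells, lower in 7 of 7 libraries (log2 change -0.85 ± 0.071 SE, edgeR adjusted p = 3.69e-07). S100a9, the partner of S100a8, had 0, 0.442, 0, 0, 0.960, 0.873 and 1.75 CPM in CD117-high cells of WT 1, 2, 3, 5 and Mff_Cre 1 to 3. CD117-low cells had 437, 36.9, 36.4, 120.2, 568, 22.4 and 11.9 CPM. CD117-high cells were at or near 0 in each library. On the log2 scale Cebpe, a factor of granulocyte maturation, was lower by a change of -3.30, Ms4a3 of -1.59, Srgn of -0.87 and Prtn3 of -0.48. The highest granule sum of a single EMP cell lay between 9712 CPM (WT 2) and 98573 CPM (Mff_Cre 1), while library medians lay between 876 and 2557 CPM. How much of these falls a few such cells carried was not tested.

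Genes of other kinds moved with the granule genes. Hdc averaged 32.9 CPM in CD117-high and 116 CPM in CD117-low cells (log2 change -1.85 ± 0.24, edgeR adjusted p = 8.74e-05). Among the called genes with the largest fall were also Atp8b4, a phospholipid flippase (-2.88), Anxa1, an annexin of granulocytes (-2.19), and Hp, haptoglobin (-1.62). Of the leukocyte list 0 rose and 9 of 15 fell, and 3 of 6 macrophage genes fell. Cpa3 at 116 and 176 CPM did not pass (adjusted p = 0.155, edgeR).

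Higher in CD117-high cells were Kit, nucleolar genes and a part of the erythroid list. Kit itself averaged 85.3 CPM in CD117-high and 61.7 CPM in CD117-low cells (log2 change 0.47, edgeR adjusted p = 0.00858), higher in 6 of 7 libraries. Of the nucleolar list 7 of 13 were higher and 0 lower, with a median change of 0.17. Of the erythroid list 5 of 13 were higher, among them Klf1 (0.59) and Epor (1.17), and 1 lower, Hba-x. The largest rises among called genes were in Kcnn4, a potassium channel of red cells (1.21), Bcl11a, a repressor of fetal globin genes (0.73), Cpox, an enzyme of heme synthesis (0.68), Smim1, which carries the Vel blood group (0.51), and Lmo2, a partner of Tal1 (0.49). With cells thinned to 5000 UMIs the Smim1 change was -0.000447 and did not pass.

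By CD45 the cells split along the opposite line. Of 8361 genes, 465 (5.56%) were higher and 365 (4.37%) lower in CD45-high cells. Prtn3 averaged 1262 CPM in CD45-high and 651 CPM in CD45-low cells, and Mpo 864 against 581 CPM, both higher in 7 of 7 libraries (log2 changes 0.96 ± 0.075 and 0.55 ± 0.085, edgeR adjusted p = 7.43e-08 and 0.000227). Ptprc, the CD45 gene, averaged 74.5 against 43.6 CPM. Of the leukocyte list 12 of 15 were higher and 0 lower, of the granule list 3 of 10 were higher and 0 lower, and all 6 macrophage genes tested were higher, with C1qb at 14.1 against 3.58 CPM. The macrophage genes were too low to be tested after thinning to 5000 UMIs.

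The erythroid and megakaryocyte lists were higher in CD45-low cells. Klf1 had 28.3, 28.4, 1.01, 13.5, 19.7, 16.9 and 5.69 CPM in CD45-high cells of WT 1, 2, 3, 5 and Mff_Cre 1 to 3. CD45-low cells had 64.2, 67.3, 2.79, 53.4, 61.6, 57.8 and 35.7 CPM, higher in each of the 7 libraries. Its log2 change was -1.57 ± 0.14 (edgeR adjusted p = 2.85e-07), and Gata1 averaged 42.4 against 71.9 CPM. Of 13 erythroid genes 9 were lower and 1, Hba-x, higher in CD45-high cells, and of 11 megakaryocyte genes 8 were lower and 0 higher. Cited4, a CBP/p300-binding protein (-2.15), Smim1 (-1.63), Blvrb, biliverdin reductase B (-1.42), and Gp1bb, a chain of the platelet von Willebrand factor receptor (-1.41), were among the largest falls. Lsp1, a leukocyte actin-binding protein (2.21), Gsn, gelsolin (1.59), and Cd69, an early activation antigen (1.30), were among the largest rises.

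Split by CD41, EMP cells separated by megakaryocyte genes. Of 8351 genes, 243 (2.91%) were higher and 303 (3.63%) lower in CD41-high cells, and 9 of 11 megakaryocyte genes were higher and 0 lower (median change 1.05). Itga2b, which encodes CD41, averaged 45.8 against 28.7 CPM, and Gp1bb 31.0 against 8.45 CPM, higher in 7 of 7 libraries each. Pf4, a chemokine of platelet granules, averaged 26.8 against 9.23 CPM, but WT 5 alone had 92.8 CPM in its CD41-high cells. F2r, the thrombin receptor, averaged 50.8 against 13.8 CPM. Of the granule list 0 were higher and 8 of 10 lower, and of the erythroid list 6 of 13 were higher and 1 lower. After thinning to 5000 UMIs 6 megakaryocyte genes could be tested and 1 was higher. In DESeq2 7 of 11 megakaryocyte genes and 1 of 12 erythroid genes were higher and 2 of 9 granule genes lower.

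**Figure D4:**
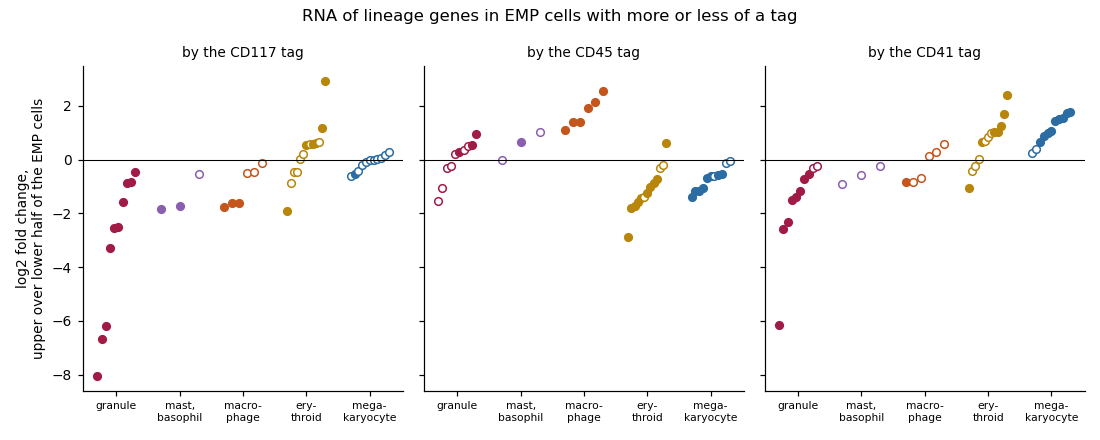
Log2 change, tag-high over tag-low EMP cells, of the members of each gene list when cells are split by CD117, CD45 or CD41 tag; filled points passed an adjusted p of 0.1 in edgeR. Granule genes lie below 0 for CD117 (10 of 10 called), erythroid genes mostly below 0 for CD45 (9 of 13 called) and megakaryocyte genes above 0 for CD41 (9 of 11 called).

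Doublets were few, from 0 to 3 in each set of tag-high or tag-low cells. The counts of called genes depended on the test: DESeq2 called 163 genes by CD117, 234 by CD45 and 119 by CD41. Within the granule list the CD117 split gave 0 higher and 8 lower in DESeq2 as well as after thinning, and 0 higher and 10 lower with tag counts per 10000 UMIs. Under the last setting the CD117 rises shrank to 1 of 13 erythroid and 1 of 13 nucleolar genes, no macrophage gene was called, and by CD45 1 of 11 megakaryocyte and 6 of 13 erythroid genes were lower in CD45-high cells.

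Genotype was compared next, with Meis1 read first. Meis1, a homeodomain factor of hematopoietic stem cells, had 77.0, 60.3, 56.7, 69.4 and 64.9 CPM in WT EMP cells, with 20.9, 36.4 and 25.4 CPM in Mff_Cre. The genotypes did not overlap, with 65.6 ± 7.93 against 27.6 ± 7.95 CPM (exact permutation test, two-sided, p = 0.0179, the smallest possible). In edgeR the log2 change was -1.20 ± 0.17 (SE, adjusted p = 0.00664), and it was -1.20 with WT 5 as the only WT library (adjusted p = 0.085). The call was lost with median UMIs as a covariate (-1.38, adjusted p = 0.138, edgeR) and after thinning to 5000 UMIs (-1.06, adjusted p = 0.147, edgeR). The counts come from the 3′ end of the transcript and do not read the floxed exon, so they do not measure the deletion itself. EHT cells went from 80.0 to 62.1 CPM and Myeloid cells from 20.4 to 10.5 CPM.

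Of 9172 genes tested in EMP cells by edgeR, 246 (2.68%) were higher and 189 (2.06%) lower in Mff_Cre at an adjusted p under 0.1. With WT 5 as the only WT library, which had a median depth close to that of Mff_Cre 1 and 3 and above that of Mff_Cre 2, 50 genes were called, 35 of them among the 435, and 417 of the 423 with a value kept their direction. With median UMIs as a covariate 13 were called, all among the 435. Leaving out Mff_Cre 1 left 44 and leaving out WT 5 gave 845. Runx1, Kit and Myb did not pass (log2 changes 0.26, -0.35 and -0.24, adjusted p = 0.184, 0.284 and 0.320, edgeR).

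Ifitm1, an interferon-induced membrane protein, was among the called genes that rose. WT EMP cells had 138, 277, 122.5, 108 and 55.6 CPM, and Mff_Cre EMP cells 1037, 938 and 578 CPM, without overlap. Its log2 change was 2.65 ± 0.36 (edgeR adjusted p = 0.00613), 3.96 against WT 5 alone (adjusted p = 0.000213) and 3.97 with the covariate (adjusted p = 0.0899). Cd200r3 and Cd200r4, CD200 receptors of mast cells and basophils, averaged 3.26 and 4.83 CPM in WT and 20.2 and 21.5 CPM in Mff_Cre (log2 changes 2.52 ± 0.33 and 2.24 ± 0.32, edgeR adjusted p = 0.00613 and 0.00731). Both were called against WT 5 alone (4.15 and 3.06) and with the covariate (3.87 and 3.48). The means of Cd200r3 and Cd200r4 were also higher in Mff_Cre in EHT (1.40 to 4.44 and 5.63 to 12.9 CPM) and in Myeloid cells. Their rise was therefore not seen in EMP cells alone. Cpa3, the mast cell protease, rose from 76.0 to 239 CPM. It was the 1 called gene of the 3 tested from the mast and basophil list, of which 1 was called against WT 5 alone and 0 with the covariate.

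Meis2, the paralogue of Meis1, was chosen after its values were seen. WT EMP cells had 0, 0, 0.484, 0.532 and 0 CPM, and Mff_Cre EMP cells had 22.9, 5.53 and 10.3 CPM. These were 4 UMIs in 4 of 390 WT cells and 83 UMIs in 28 of 357 Mff_Cre cells, so the Mff_Cre signal lay in few cells. The edgeR log2 change was 5.66 ± 0.68 (adjusted p = 0.00457), and against WT 5 alone 7.90 (adjusted p = 0.0679). Endothelial cells had 34.4 CPM in WT and 30.4 in Mff_Cre, and EHT cells 18.8 and 27.6 CPM.

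Gpc3, a glypican of the cell surface, was among the called genes that fell. WT EMP cells had 54.5, 47.8, 38.7, 31.6 and 31.9 CPM, and Mff_Cre EMP cells 7.79, 9.67 and 2.15 CPM. The log2 change was -2.60 ± 0.33 (edgeR adjusted p = 0.00563) and -2.27 against WT 5 alone (adjusted p = 0.0432). With the covariate it was -2.40 and not called (adjusted p = 0.181, edgeR). Prg2, the major basic protein of eosinophil granules, had 72.0, 67.6, 114, 2.13 and 41.5 CPM in WT, against 1.46, 0 and 0 CPM in Mff_Cre, with WT 4 near the Mff_Cre libraries (edgeR adjusted p = 0.0449). It was called against WT 5 alone and not with the covariate (adjusted p = 0.596, edgeR). Ptger3, a prostaglandin E2 receptor, averaged 28.4 CPM in WT and 5.68 in Mff_Cre (log2 change -2.28, edgeR adjusted p = 0.0360), a fall that was not called against WT 5 alone (-2.14). Ptger3 fell in EHT (8.01 to 0 CPM) and Myeloid cells (18.8 to 1.73 CPM) as well.

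In some called falls WT 5, the WT library nearest to Mff_Cre in depth, sided with the Mff_Cre libraries. The reason was not tested. Hist1h4d, a histone H4 gene, had 112, 122, 146, 94.9 and 30.03 CPM in WT, against 19.97, 8.29 and 26.7 CPM in Mff_Cre, so WT 5 lay near the Mff_Cre libraries, and against WT 5 alone its change was -0.67. Dgkz, a diacylglycerol kinase, averaged 45.7 and 13.6 CPM and had 18.2 CPM in WT 5 (-0.39 against it). Gm5611, a gene model, averaged 27.7 and 0.899 CPM and had 1.85 CPM in WT 5. Nphs1 (nephrin) behaved alike, with -0.52 against WT 5 alone. These genes also had lower values in EHT and Myeloid cells of the Mff_Cre libraries. AI662270, another gene model, averaged 21.8 CPM in WT and 2.49 in Mff_Cre with 20.8 CPM in WT 5. It was also lower in Mff_Cre in EHT (32.6 to 4.07 CPM) and Myeloid cells (14.5 to 2.18 CPM).

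Embryonic globin genes were higher in Mff_Cre EMP cells, unevenly between libraries. Hbb-bh1, an embryonic beta-like globin, had 32.0, 31.2, 0, 63.5 and 40.4 CPM in WT, against 552, 117 and 539 CPM in Mff_Cre (log2 change 3.58 ± 0.60, edgeR adjusted p = 0.0162). Without Mff_Cre 1 it was no longer called (adjusted p = 0.101, edgeR), nor was it with the covariate (adjusted p = 0.503, edgeR), while against WT 5 alone it was (3.35, adjusted p = 0.0772, edgeR). Hba-x, the embryonic alpha-like globin, averaged 14.0 and 235 CPM, and Hba-a1 4.11 and 71.3 CPM. Against WT 5 alone Hba-x was not called (adjusted p = 0.273, edgeR). Hba-a1 and Hba-a2 are near-identical and their split is uncertain. Summed erythroid genes of single EMP cells reached 38021, 5549 and 14333 CPM in Mff_Cre 1 to 3, while in the WT libraries the highest cells lay between 2181 and 3605 CPM. Their medians over cells were 355, 338 and 185 CPM in Mff_Cre and from 115 to 299 CPM in WT. In endothelial cells of the same libraries Hbb-bh1 averaged 5.53 CPM in WT and 14.0 in Mff_Cre, and the part of free globin RNA in the EMP values was not tested.

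By gene group, the granule list had 4 of 9 tested genes higher in Mff_Cre and 0 lower, with a median log2 change of 0.54 where all genes had -0.00287. Mpo averaged 631 CPM in WT and 833 in Mff_Cre (0.46), Prtn3 811 and 1135 (0.54), Srgn 523 and 753 (0.58) and Ms4a3 54.7 and 127 CPM (1.26). After thinning to 5000 UMIs 2 of 8 granule genes were higher and 1 was lower. Against WT 5 alone, and with the covariate, 0 granule genes were called in either direction. Of 14 erythroid genes 5 were higher and 0 lower (median 1.30), and against WT 5 alone 2 were higher and with the covariate 0. Among these 5 erythroid genes were the globins Hba-a1, Hba-a2, Hba-x and Hbb-bh1 described above. Of 11 megakaryocyte genes 1 was higher, the transcription factor Nfe2 (0.51), and 1 lower, the platelet glycoprotein Gp9, at 17.6 CPM in WT and 4.35 in Mff_Cre (-1.99). Of 15 leukocyte genes 3 were higher, the tetraspanin Cd53 and the signalling adaptors Fcer1g and Tyrobp, and 0 lower. Against WT 5 alone 0 megakaryocyte genes were higher and 2 lower, and 1 leukocyte gene was higher. With the covariate 1 megakaryocyte gene was lower and 1 leukocyte gene higher.

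The fetal axis list, of RNA-binding and chromatin proteins that mark fetal cells, had 0 of 7 genes higher and 2 lower, where 2.06% of all genes were lower, and 0 were called against WT 5 alone or with the covariate. Hmga2 averaged 251 CPM in WT and 109 in Mff_Cre (-1.16 ± 0.24, edgeR adjusted p = 0.0358), and Igf2bp2, an RNA-binding protein, 48.1 and 20.02 CPM (-1.21 ± 0.18, edgeR adjusted p = 0.00906). Of 18 G2/M genes 3 were lower, Bub1, Cdk1 and Cenpe, and 0 higher, and 0 were called after thinning, against WT 5 alone or with the covariate. Of 17 receptors 1 was higher, Csf2ra, a chain of the GM-CSF receptor (1.28), with 1 receptor called against WT 5 alone and 0 with the covariate. Of 20 transcription factors the 1 called was Meis1. No gene was called among 19 S phase, 13 nucleolar, 7 macrophage and 14 endothelial genes by edgeR, with median changes of -0.078, -0.18, 0.84 and 0.59. The endothelial list summed to 300.5 ± 118 CPM in EMP of WT and 354 ± 91.6 CPM in Mff_Cre. The nucleolar list summed to 13452 ± 88.8 CPM in WT and 10999 ± 398 CPM in Mff_Cre, without overlap. In WT 5 this sum was 13407 CPM. DESeq2 called 2 of 13 nucleolar genes lower and 0 higher. The sums themselves were not tested.

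**Figure D5:**
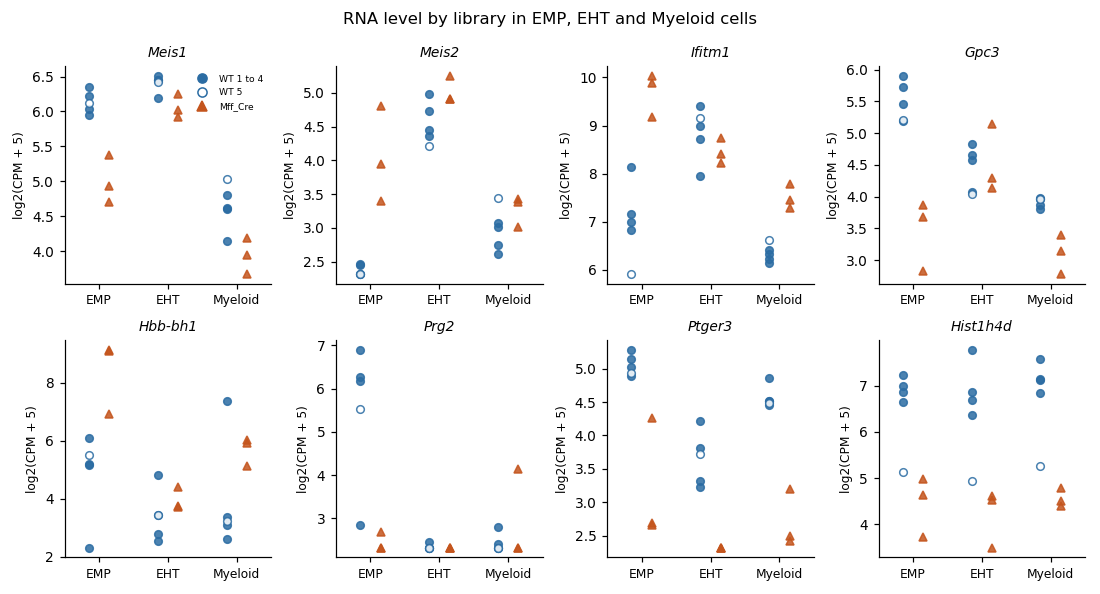
Level of 8 genes per library, as log2(CPM + 5), in EMP, EHT and Myeloid cells of WT (circles, WT 5 open) and Mff_Cre libraries. In EMP cells Meis1 and Gpc3 are lower and Ifitm1, Meis2 and Hbb-bh1 higher in the 3 Mff_Cre libraries than in the 5 WT libraries, while for Hist1h4d WT 5 (30.03 CPM) lies near the Mff_Cre libraries.

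Whether these changes differed from those in neighbouring cells was tested by an interaction term in edgeR, with the library as a block. Against EHT cells 28 of 10270 genes (0.273%) changed more upward and 12 (0.117%) more downward in EMP. Ifitm1 averaged 481 CPM in EHT of WT and 349 in Mff_Cre, so its change differed from that in EMP by 3.12 ± 0.48 on the log2 scale (edgeR adjusted p = 0.00298). Gpc3 averaged 17.1 and 19.2 CPM in EHT, a difference of -2.83 ± 0.53 (edgeR adjusted p = 0.0172). Hbb-bh1 differed by 3.16 ± 0.44 (adjusted p = 0.00117, edgeR) and Meis2 by 5.01 (adjusted p = 0.000126). Meis1 fell further in EMP than in EHT, by -0.92 ± 0.20 (edgeR adjusted p = 0.0780).

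Against Myeloid cells 56 of 11372 genes (0.492%) changed more upward and 29 (0.255%) more downward in EMP. Runx1 averaged 168 CPM in EMP of WT and 193 in Mff_Cre, and 143 and 102 CPM in Myeloid, a difference of 0.68 ± 0.10 (edgeR adjusted p = 0.00620). The Meis1 change did not pass a test of difference from Myeloid cells (-0.40 ± 0.22, adjusted p = 0.550, edgeR), nor did that of Ifitm1 (1.41 ± 0.35, adjusted p = 0.118, edgeR). Gpc3 averaged 10.1 CPM in Myeloid cells of WT and 3.78 in Mff_Cre, so it was lower there too. Its difference from Myeloid cells did not pass (-1.27 ± 0.45, adjusted p = 0.323, edgeR). That of Hbb-bh1 did not pass either (1.73 ± 0.82, adjusted p = 0.481, edgeR). Kit, Myb, Cd200r3 and Cd200r4 passed in neither comparison. The changes of Cd200r3 and Cd200r4 differed from those in EHT by 1.10 and 1.19 (adjusted p = 0.808 and 0.671, edgeR). From those in Myeloid cells they differed by 0.31 and 0.68 (adjusted p = 0.917 and 0.719, edgeR).

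Surface tags of EMP cells by genotype, each taken as the log2 ratio to Myeloid cells of the same library, passed for none of the 6 proteins. CD117 was 0.55 in the 4 WT libraries with tags and 1.14 in Mff_Cre (exact permutation p = 0.0857, adjusted 0.343), and CD41 was 0.74 and 1.20 (p = 0.171, exact permutation). The smallest p that 4 against 3 libraries allow is 0.0286 (exact permutation).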

How the data were processed

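CITE-seq libraries of CD31+ AGM cells from 5 WT and 3 Mff_Cre pools were used. The authors deposited 1 table of counts, whole UMI counts per cell for 28011 genes, 6 antibody tags and 3 transgene rows, and an annotation that gives each cell its library and cell type. Per the submitters' processing notes reads were processed with Cell Ranger 3.0.2 on mm10, and the gene annotation release is not given in the sources used here. The deposited cells had at least 2001 genes and at most 9.98% mitochondrial counts, and the authors clustered them on RNA. Counts were in UMIs of the 3′ end, not corrected for length.

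Counts of EMP cells were summed per library, with at least 10 cells required. edgeR 4.0.16 in R 4.3.3 was run with TMM factors, filterByExpr, the quasi-likelihood F test, Benjamini-Hochberg adjustment and a threshold of 0.1. Single values were tested by exact permutation of libraries or exact sign flips (SciPy 1.17.1), with 0.05 for tags, a tag pseudocount of 0.01 and a CPM pseudocount of 5. WT 3 was left out of tag ratios to Megakaryocytes, having too few of those cells. Nothing in the labels ties libraries to single animals, and p-values measure the spread between pools. Scrublet (in scanpy 1.11.5) marked doublets, which were kept, with their removal as an alternative. Named genes were Runx1, Kit, Myb and Meis1, members of gene lists, EMP-high genes, and of the called genes of each comparison the 8 that rose and the 8 that fell the most, at 20 CPM or more, without overlap or moving the same way in every library. A fixed set of sex-linked genes, among them Xist and Ddx3y, was left out when EMP-high and called genes were picked for naming. Members and lists were chosen with earlier results of these data known. The comparisons of the genotype change between cell types were added after the data were seen. The main functions were tested on simulated data. Alternatives were DESeq2 1.42.0, other scalings and filters, thinning to 5000 UMIs, doublet removal, WT 5 alone, depth as a covariate, and leaving out each library.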

Additional observations from a re-analysis of the deposited data

Results flagged for a closer look

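EMP cells of WT 5 had a median of 21434 UMIs, apart from the 47527 to 53132 of the other 4 WT libraries; of the groups screened for such gaps, chance alone would single out about 1 in 20. The transgene row for CreERT2 held 34 UMIs in cells of the Mff_Cre libraries (12, 3 and 19 in Mff_Cre 1 to 3) and 0 in the WT libraries, and 1 of the 34 was in an EMP cell. The row's name is not that of the VE-Cre in the labels, and which Cre transcripts it counts is not given in the sources used here.

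The genotype change in EMP minus that in EHT cells, on the log2 scale and by the edgeR interaction term, was -2.83 for Gpc3, 2.66 for Hba-x, 3.16 for Hbb-bh1, 3.12 for Ifitm1, -0.92 for Meis1 and 5.01 for Meis2. The same difference against Myeloid cells was -9.22 for Prg2, 4.16 for Hba-a1, 4.88 for Meis2 and 0.68 for Runx1. Of the genes named against EHT, only Meis2 also passed against Myeloid cells. The Prg2 value is a fit against Mff_Cre libraries with 1.46, 0 and 0 CPM and is not a measured fold. The Hba-a1 value involves WT 4, whose Myeloid cells held 145.7 CPM of Hba-a1, and it was not called without that library (adjusted p = 0.741, edgeR).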

How the results depend on the processing

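Numbers of called genes moved with the test. By genotype 435 genes became 164 at an adjusted p under 0.05, 15 by Bonferroni, 160 after thinning, 13 with the depth covariate, 50 with WT 5 alone, and 44 (without Mff_Cre 1) to 845 (without WT 5) when 1 library was left out. By CD41 546 became 119 in DESeq2, 108 after thinning, 34 without the library block and 295 to 659 without 1 library. By CD45 830 became 298 with tag counts per 10000 UMIs, 234 in DESeq2, 158 after thinning, 155 without the block and 549 to 926. By CD117 664 became 1089 for the highest against the lowest cells, 229 per 10000 UMIs, 163 in DESeq2, 171 after thinning, 41 without the block and 317 to 808. The difference from EHT moved from 40 to 136 without a filter on low counts and 19 to 40 without 1 library, and that from Myeloid from 85 to 416, 21 with WT 5 alone and 33 to 136. The lowest counts came without Mff_Cre 1 by genotype, without WT 1 by CD41 and without WT 2 by CD45 and CD117. EMP-high genes were 1 at 4-fold, 10 with a pseudocount of 0.5 CPM and 5 to 8 without 1 library. The 17 tag pairs became 0 per 10000 UMIs and 0 to 17 without 1 library. The Meis1 difference was -35.4 CPM after thinning (exact permutation p = 0.107), and the EMP share of hematopoietic cells differed by -4.62 points (exact permutation p = 0.464). Why these counts moved was not tested.

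Values that changed sign included those of CD117 and CD45 against EC. As log2 ratios of mean counts they were 1.61 and 1.33, and both passed 0.05 (adjusted p = 0.0288, exact sign flips). As centred log ratios they were -0.556 and -0.986, and both passed the other way (adjusted p = 0.0375 and 0.0268, exact sign flips). Whether EMP cells lay above or below EC for these tags therefore depended on the scale. CD44 against EHT also changed sign (-0.189 as centred log ratio, -0.297 per 10000 UMIs). So did CD27 against EC (-0.283 to 0.0291 without 1 library, 0.0155 without Mff_Cre 3) and Smim1 by CD117 after thinning (-0.000447). By genotype the sign changed for CD117 (-0.127 with EHT as reference, -2.49 with none), CD43 (0.919 with EHT) and CD41 (-1.81 with none). It changed for CD45 (-1.78 with none, -0.184 to 1.23 without 1 library) and CD27 (-0.316 to 0.0644 without 1 library, 0.00243 without WT 2).

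Same-numbered libraries of the 2 genotypes correlated at 0.0945, 0.0854 and 0.168 in their deviations. Mff_Cre 1 went best with WT 2 (0.113), while Mff_Cre 2 and Mff_Cre 3 went best with the WT library of their own number. Correlations this small cannot decide whether the numbers pair the samples. With the replicate block on libraries 1 to 3, the Meis1 difference was -37.1 CPM (exact p = 0.25), the share difference 0.317 points, and 1001 genes were called by genotype, against 717 in the same libraries without it.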
